A study of Mus musculus with 24 samples.

Results

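The genes described here make up the extracellular and receptor side of Wnt signalling, with 2 of its feedback and nuclear genes. They are the protein-coding genes whose symbol is Wnt, Fzd, Sfrp, Dkk or Rspo followed by a number, together with Lrp5, Lrp6, Frzb, Wif1, Sost, Notum, Axin2 and Lef1. The rule uses names only and gave 49 genes out of 54232 gene identifiers, or out of 21983 protein-coding genes in the GENCODE M21 annotation. They were 19 Wnt ligands, 4 R-spondins, 10 Frizzled receptors, 2 co-receptors, 6 secreted proteins that bind Wnt, 5 Dickkopf or sclerostin genes, the Wnt-inactivating enzyme Notum, and the feedback and nuclear genes Axin2 and Lef1.

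Wnt ligands are lipid-modified secreted proteins that bind Frizzled receptors, and in the beta-catenin branch they also bind the co-receptors Lrp5 or Lrp6. R-spondins raise the number of receptors at the cell surface by blocking their removal, secreted Frizzled-related proteins and Wif1 bind Wnts outside the cell, and Dickkopf 1, Dickkopf 2 and sclerostin act on the co-receptors. In bone, Wnt signalling is known for promoting osteoblast formation and for limiting osteoclast formation through the osteoblast lineage.

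The study sequenced RNA of cultured bone marrow stroma. Marrow donors were female C57BL/6 mice, 6 to 8 weeks old, either wild type or Sh3bp2KI/KI, which is homozygous for a knock-in of Sh3bp2 and is abbreviated CBM in the sample titles. Cells grew for 7 days in MEM-alpha with serum and were sorted by flow cytometry into CD45+Sca1+ cells, labelled hematopoietic, and CD45-Sca1+ cells, labelled mesenchymal. There were 24 libraries of ribosomal-RNA-depleted total RNA, 6 for each of the 4 combinations of genotype and population. Until the sort both populations shared a dish, and in a knock-in culture both carried the knock-in. Nothing in the labels tells whether the 6 replicates came from different animals, so a p-value reflects no more than sample-to-sample spread, which may be technical.

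Library totals ranged from 9875390 to 15826711 counts. Of the 16 leukocyte markers, 15 averaged 1 CPM (a normalised read count scaled to library size) or more in wild type hematopoietic libraries, and all 20 stromal markers did so in mesenchymal libraries of both genotypes. Hematopoietic libraries also held stromal transcripts: in wild type the 20 stromal markers stood at a median of 9.14% of their mesenchymal level (range 4.91% to 30.3%), and in knock-in at 11.1% (4.78% to 60.5%). The summed level of the stromal list did not separate the genotypes in hematopoietic libraries (exact permutation test, 2-sided, p = 0.978) or in mesenchymal ones (p = 0.405). The sum is led by Col1a1 and Col1a2, and single markers moved in both directions. In mesenchymal libraries Cxcl12 averaged 1128 CPM in wild type and 342 in knock-in, and Postn 1727 and 2610. The sum therefore does not show that stromal content was equal. In bulk RNA, fewer cells of a type and less RNA per cell cannot be told apart.

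Counts were found for 46 of the 49 genes, and Sfrp5, Wnt8b and Wnt9b had none in any library. The 2 bone-related inhibitors Sost and Dkk1 were almost absent, with 1 and 2 counts summed over all 24 libraries. Dkk4 had 1 count, Rspo4 had 2, Wnt2 had 3, Wnt8a had 4, Wnt3a had 5 and Wnt1 had 7. Notum, an enzyme that removes the lipid of Wnts, had 40 counts. Such genes did not pass the filter on low counts.

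Levels are compared between genes as CPM per kilobase of exon, since a longer transcript yields more reads. In wild type mesenchymal cells the highest was Rspo2, an R-spondin, at 246 ± 146 CPM per kilobase (SD, n = 6). Dkk3, a Dickkopf relative that does not act on the co-receptors, followed at 140 ± 12.5, and the Frizzled-related proteins Sfrp2 and Sfrp1 at 110.9 ± 27.6 and 46.1 ± 15.8. The ranges of Rspo2, Dkk3 and Sfrp2 overlapped those of their neighbours in that order, whereas Sfrp2 lay above Sfrp1 and Sfrp1 above Lrp6, a co-receptor at 19.4 ± 1.41, in every library.

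In knock-in mesenchymal cells Dkk3 came first at 170 ± 15.7 CPM per kilobase, then Rspo2 at 120 ± 51.3, Sfrp2 at 24.99 ± 9.66, Lrp6 at 19.9 ± 0.926 and Fzd1, a Frizzled receptor, at 13.5 ± 3.08. Dkk3 and Rspo2 overlapped, and so did Sfrp2 and Lrp6. Sfrp1 was no longer among the first 5.

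Hematopoietic cells had a different order. Lrp6 led at 29.4 ± 3.45 CPM per kilobase in wild type and 24.7 ± 1.88 in knock-in, with a range that overlapped that of the next gene in each genotype, Rspo2 in wild type and Dkk3 in knock-in. Lrp5, the other co-receptor, stood at 11.2 ± 1.80 and 8.29 ± 0.718, and Fzd7 at 7.56 ± 1.01 and 5.01 ± 0.779. Rspo2 and Dkk3, which led in mesenchymal cells, were at 16.03 ± 9.71 and 13.6 ± 4.79 in wild type hematopoietic cells.

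**Figure D1:**
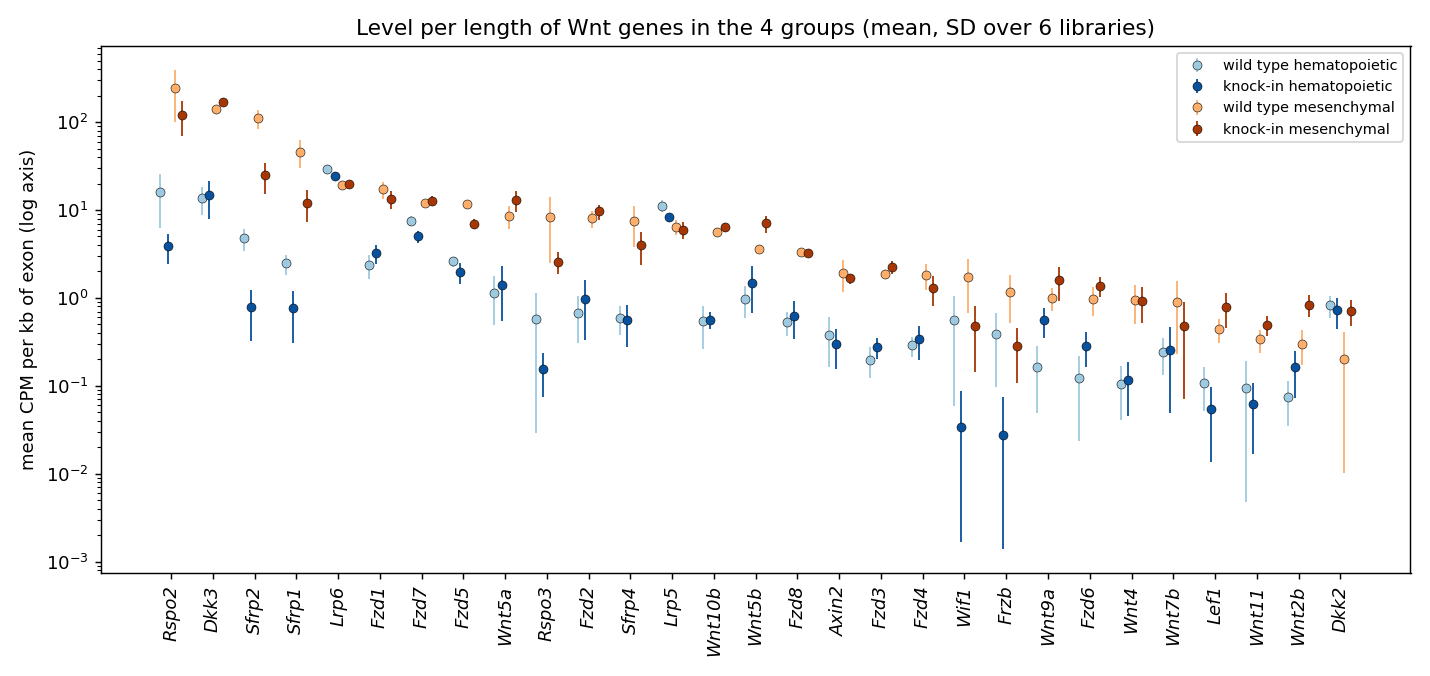
Mean level per length (CPM per kilobase of exon, log axis) of the tested Wnt genes in the 4 groups, with bars for the SD over 6 libraries. Lower bars that would reach 0 or below are cut short, and Rspo2, Dkk3 and Sfrp2 lead in wild type mesenchymal cells at 246, 140 and 110.9.

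Among the Wnt ligands, Wnt5a, which acts largely outside the beta-catenin branch, held the largest share of the summed ligand level per length in mesenchymal cells, 39.1% ± 6.90 (SD, n = 6) in wild type and 41.3% ± 5.25 in knock-in. Wnt10b, a ligand known to favour osteoblasts over adipocytes, held 26.1% ± 3.41 and 20.8% ± 3.31. Wnt5b, a close relative of Wnt5a, held 16.97% ± 2.66 and 22.8% ± 4.12. The summed ligand level was 21.6 ± 2.63 CPM per kilobase in wild type and 30.9 ± 5.22 in knock-in mesenchymal cells.

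Among the Frizzled receptors, wild type mesenchymal cells divided their RNA between Fzd1 with 29.9% ± 4.50 of the summed level per length, Fzd7 with 20.9% ± 3.12, Fzd5 with 20.5% ± 2.50 and Fzd2 with 13.9% ± 2.05. In wild type hematopoietic cells Fzd7 alone held 52.9% ± 6.94 and in knock-in 39.9% ± 5.75. Fzd10 had 11 counts in all libraries together.

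The comparison of the populations asks which of these genes belong to which sorted fraction. Of the 30 genes that passed the filter on low counts, 26 were higher in mesenchymal cells and 3 lower in wild type (edgeR quasi-likelihood test, Benjamini-Hochberg adjusted p under 0.05, here termed called), or 96.7% called against a background of 73.5% of all 15389 genes tested (35.4% higher and 38.0% lower). In knock-in 26 were higher and 2 lower, 93.3% against a background of 73.0% (33.9% higher and 39.1% lower). The median log2 fold change of mesenchymal over hematopoietic was 2.60 in wild type and 2.71 in knock-in, beside -0.03 and -0.07 over all genes tested. The groups did not overlap for 24 of the 30 in wild type, where the background is 51.8%, and for 25 in knock-in, where it is 51.3%. Of the 30 genes, 22 also passed the filter in the hematopoietic libraries alone. The others (Frzb, Wif1, Rspo3, Lef1, Wnt2b, Wnt4, Wnt11 and Wnt16) passed only once the mesenchymal libraries were added, where their means were higher. Their calls as higher, and the part of these counts and medians that rests on them, are no independent support.

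The widest differences were those of the Frizzled-related proteins and R-spondins. Sfrp2 was higher in mesenchymal cells by 4.55 ± 0.27 on the log2 scale (SE; edgeR adjusted p = 6.16e-13) in wild type and by 4.98 ± 0.31 in knock-in (adjusted p = 1.17e-12). For Sfrp1 the log2 differences were 4.23 ± 0.33 and 4.0 ± 0.35, and for Rspo2 3.88 ± 0.35 and 4.92 ± 0.37. All 8 tested Frizzled receptors were higher in mesenchymal cells in both genotypes, from Fzd7 with 0.66 ± 0.11 to Fzd2 with 3.58 ± 0.36 in wild type. The 2 genes not called in 1 genotype and higher in the other were Wnt16, with 1.39 ± 0.68 in wild type (edgeR adjusted p = 0.0688), and Wnt7b, with 0.73 ± 0.56 in knock-in (adjusted p = 0.246).

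The 2 co-receptors went the other way. Lrp5 was lower in mesenchymal cells by -0.81 ± 0.12 on the log2 scale in wild type (edgeR adjusted p = 3.18e-06) and by -0.48 ± 0.12 in knock-in (adjusted p = 0.00124). Lrp6 differed by -0.60 ± 0.07 (adjusted p = 1.12e-07) and -0.31 ± 0.07 (adjusted p = 0.000614). The Wnt inhibitor Dkk2 was lower in mesenchymal cells in wild type, at -2.05 ± 0.39 (adjusted p = 6.52e-05), and its difference in knock-in was -0.06 ± 0.36 (adjusted p = 0.887). The test of that change between genotypes is given with the interaction.

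The level of a gene in hematopoietic libraries as a percentage of its mesenchymal mean can be set beside the stromal markers. In wild type, 6 of 29 genes lay above every stromal marker by their mean: Dkk2 at 408%, Lrp5 at 173%, Lrp6 at 152%, Fzd7 at 63.6%, Frzb at 33.0% and Wif1 at 32.5%. Frzb and Wif1 did so narrowly, beside Dcn, the highest marker, at 30.3%. Single libraries ran from 3.95% to 62.6% for Frzb and from 1.80% to 81.3% for Wif1. In knock-in, 3 of 28 did: Lrp5 at 139%, Lrp6 at 124% and Dkk2 at 102%. Sfrp2 stood at 4.28% and 3.14%, below every stromal marker in both genotypes, Sfrp1 at 5.34% and 6.26%, and Rspo2 at 6.51% and 3.22%. For genes at the level of the stromal markers, RNA made in CD45+ cells and RNA carried over from stromal cells cannot be told apart.

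**Figure D2:**
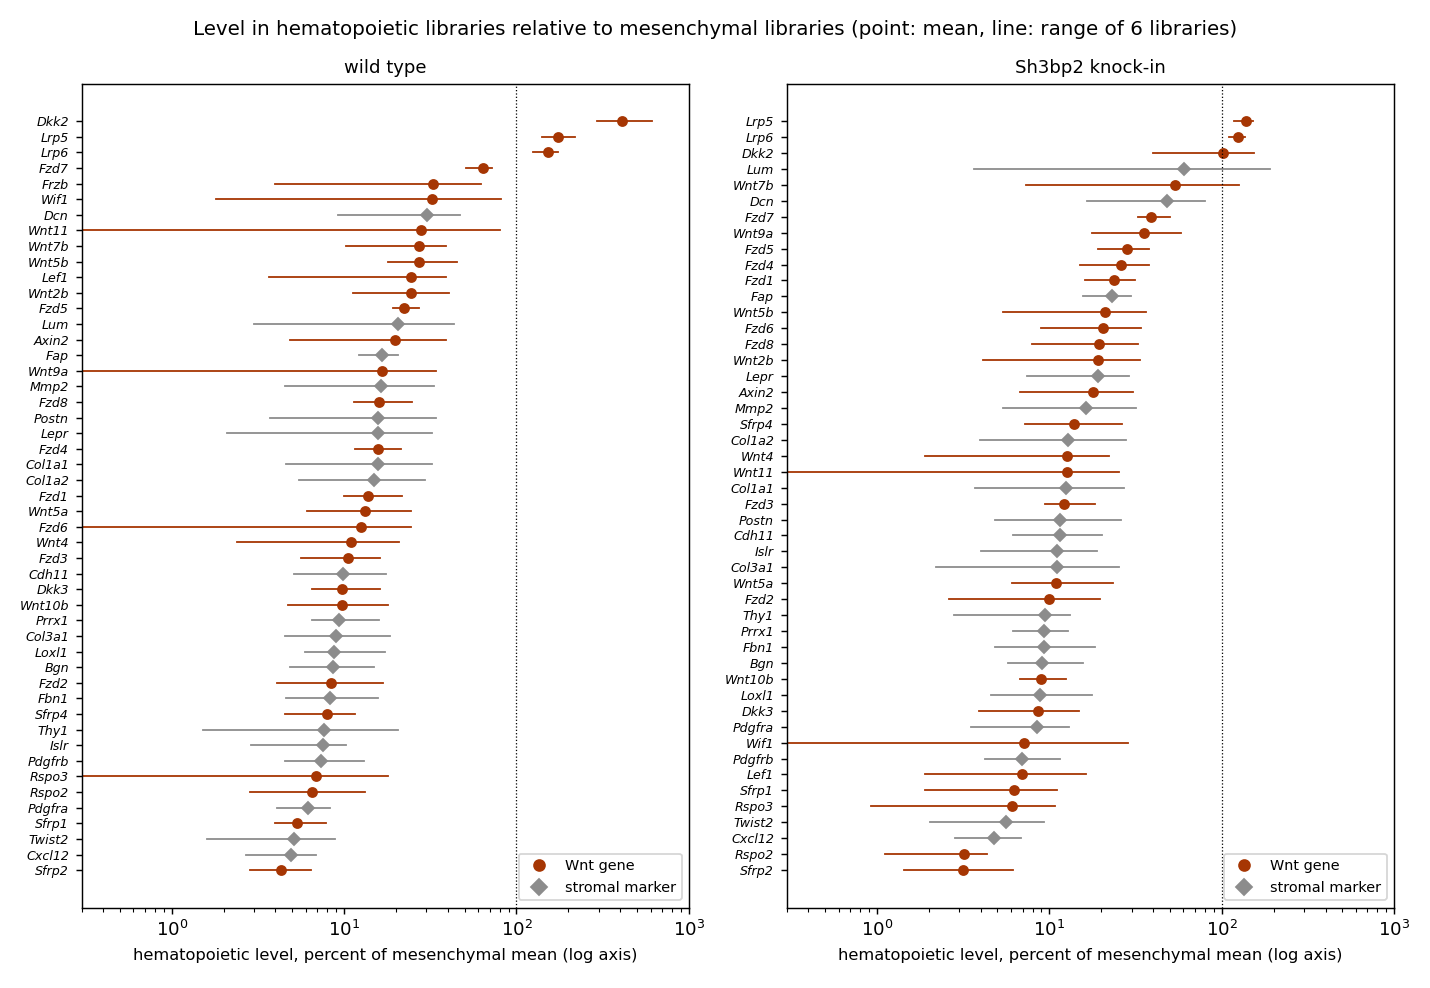
Level in hematopoietic libraries as a percentage of the mesenchymal mean of the same genotype (log axis), for the Wnt genes and the 20 stromal markers. Points are means and lines run from the lowest to the highest of 6 libraries, starting at the left edge where the lowest is 0; Dkk2, Lrp5 and Lrp6 lie above 100% in both genotypes.

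In mesenchymal cells, knock-in libraries had less RNA of 4 secreted Wnt-binding proteins (Sfrp2, Sfrp1, Frzb and Wif1), of the R-spondins Rspo2 and Rspo3 and of the receptor Fzd5. They had more of the ligands Wnt2b and Wnt5b and of Dkk2 and Dkk3. The count was 11 of 29 tested genes, 4 higher and 7 lower, or 37.9%, against a background of 7.27% of all 13867 genes tested (3.44% higher and 3.83% lower). The median log2 fold change of knock-in over wild type was -0.01 over the 29 genes and 0.00 over all genes. The groups did not overlap for 4 of the 29, where the background is 4.14%.

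**Figure D3:**
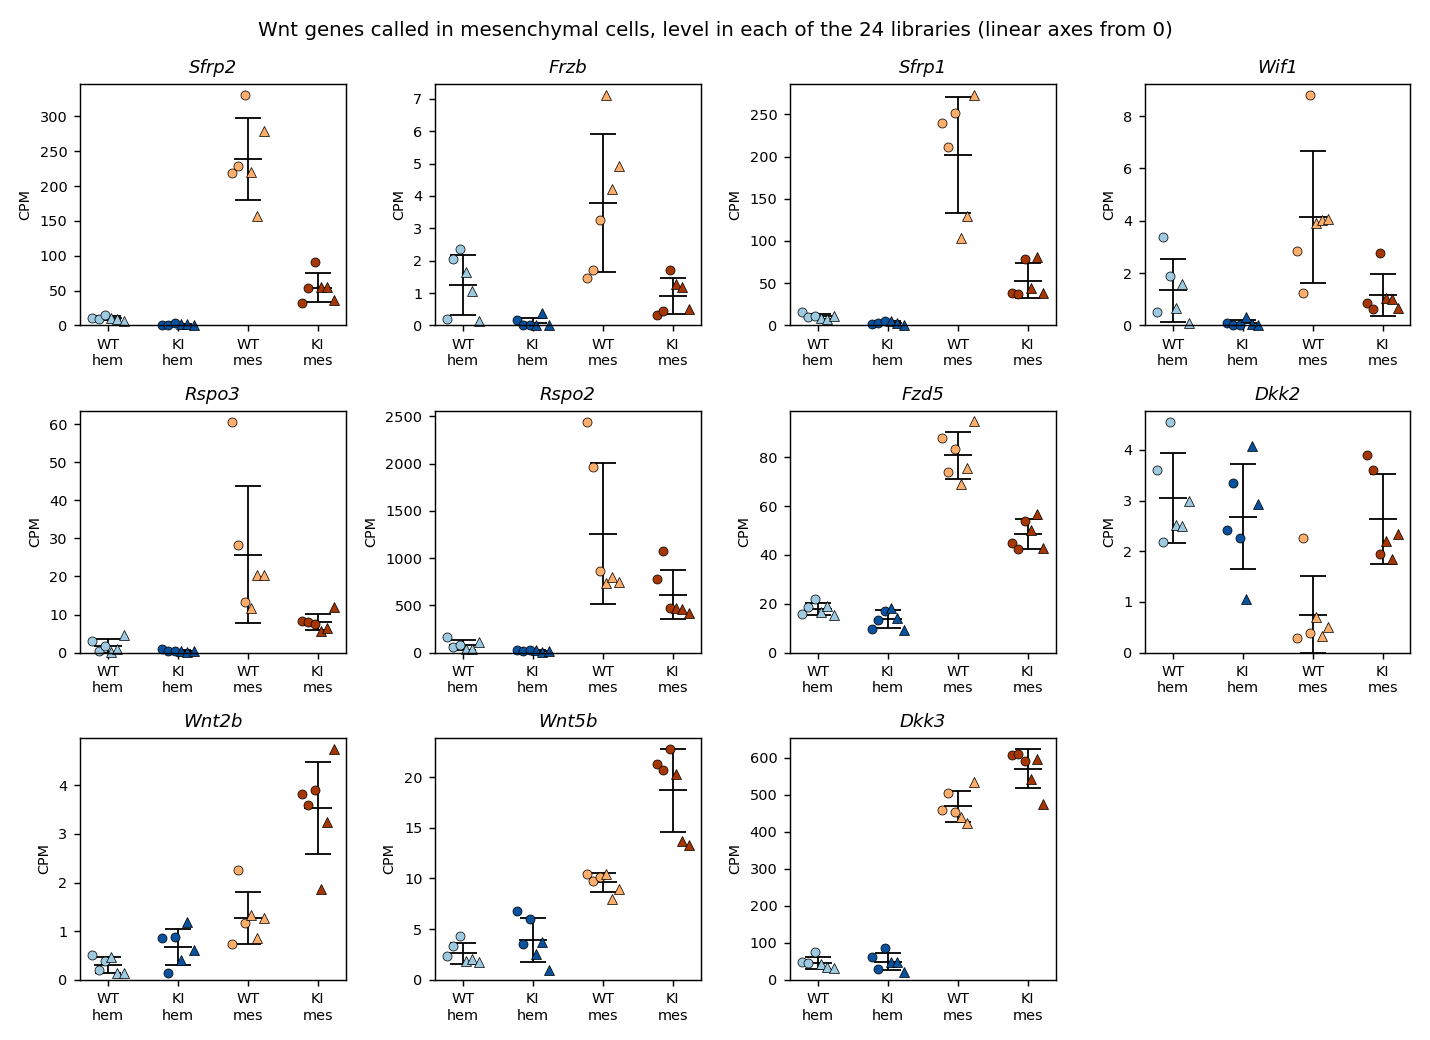
Level (CPM, linear axes from 0) in each of the 24 libraries of the 11 Wnt genes called between genotypes in mesenchymal cells; circles are libraries of set 1, triangles of set 2, and bars show the mean and SD of 6 libraries. Sfrp2 lies between 157 and 331 CPM in wild type mesenchymal libraries and between 32.2 and 90.8 in knock-in ones.

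Sfrp2, a secreted Frizzled-related protein that binds Wnts, had the largest fall on the log2 scale of these 7 genes. Wild type mesenchymal libraries held 157 CPM at the lowest, 224 at the median and 331 at the highest, and knock-in libraries 32.2, 54.3 and 90.8. Every knock-in library lay below every wild type one, with a log2 fold change of -2.14 ± 0.24 (SE, n = 6 per genotype; edgeR adjusted p = 0.000518). Its relative Sfrp1 fell as well, as wild type libraries ran from 104 CPM through 226 to 273 and knock-in libraries from 37.4 through 41.5 to 81.5. The ranges were again separate, and the log2 fold change was -1.90 ± 0.30 (edgeR adjusted p = 0.00348). The RefSeq window before the start of Sfrp2, and those of Dkk2 and Wnt5b that rose in the same cells, are printed further on.

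Frzb, another Frizzled-related protein, known from cartilage, was scarce. Its lowest, median and highest wild type libraries were at 1.46, 3.74 and 7.11 CPM, and its knock-in libraries at 0.318, 0.852 and 1.70. The log2 fold change was -1.94 ± 0.41 (edgeR adjusted p = 0.0115), and 5 of 6 knock-in libraries lay below all wild type ones. Wif1, an unrelated Wnt-binding protein, ran from 1.25 through 3.96 to 8.80 CPM in wild type and from 0.615 through 0.935 to 2.76 in knock-in. Its log2 fold change was -1.85 ± 0.45 (edgeR adjusted p = 0.0251), with 5 of 6 knock-in libraries below the wild type range. The call on Wif1 was lost in 6 of the 12 fits that left out 1 library, with an adjusted p of up to 0.0691. Knock-in libraries held 4 to 21 counts of Frzb and 7 to 34 of Wif1, so both passed the filter on low counts only through the wild type group. Sfrp4, a Frizzled-related protein of bone, was not called, at 31.3 ± 15.3 CPM (SD, n = 6) in wild type and 16.8 ± 6.85 in knock-in (log2 fold change -0.88 ± 0.30, edgeR adjusted p = 0.0967). DESeq2 called it (-0.87, adjusted p = 0.0197).

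The R-spondins fell too. Rspo2 ranged from 736 CPM through a median of 834 to 2439 in wild type mesenchymal libraries and from 422 through 468 to 1076 in knock-in ones. The 2439 and 1962 of wild type replicates 1 and 2 stood well above the other 4 libraries, at 736 to 865, and in knock-in replicates 1 and 2 also were the highest. The ranges overlapped, with a log2 fold change of -0.96 ± 0.24 (edgeR adjusted p = 0.0338). Leaving out 1 library in turn lost this call in 7 of 12 fits, among them wild type replicate 1 and wild type replicate 2, with an adjusted p of up to 0.0811. Rspo3 ran from 11.8 through 20.3 to 60.5 CPM in wild type and from 5.75 through 7.65 to 11.97 in knock-in. Its log2 fold change was -1.61 ± 0.36 (edgeR adjusted p = 0.0211), with 5 of 6 knock-in libraries below the wild type range, and the call was lost without knock-in replicate 1, 2 or 3, at up to 0.0581. The summed R-spondin level, nearly all of it Rspo2, was 255 ± 151 CPM per kilobase in wild type and 123 ± 51.3 in knock-in.

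Of the 8 tested Frizzled receptors, Fzd5 alone was called in mesenchymal cells. It fell from 69.1, 79.5 and 94.7 CPM (lowest, median and highest) in wild type to 42.5, 47.6 and 56.6 in knock-in. The ranges were separate, with a log2 fold change of -0.73 ± 0.10 (edgeR adjusted p = 0.000776). The other 7 tested Frizzled receptors had log2 fold changes between -0.48 ± 0.26 for Fzd4 and 0.51 ± 0.23 for Fzd6, with edgeR adjusted p-values from 0.0949 to 0.924. Lrp5 and Lrp6, at -0.10 ± 0.11 and 0.05 ± 0.06 (edgeR adjusted p = 0.644 and 0.720), were not called.

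The ligands Wnt5b and Wnt2b rose. Wnt5b stood at 7.96, 9.94 and 10.5 CPM in wild type mesenchymal libraries and at 13.3, 20.5 and 22.7 in knock-in ones (lowest, median and highest). The ranges were separate, and the log2 fold change was 0.95 ± 0.13 (edgeR adjusted p = 0.000682). An overlap with Fbxl14, a gene on the other strand with 6510 counts in total, makes the count of Wnt5b uncertain, since the strand setting of the counting is not given in the sources used here. Wnt2b, a ligand of the beta-catenin branch, was rarer, from 0.728 through 1.22 to 2.26 CPM in wild type and from 1.87 through 3.71 to 4.75 in knock-in. Its log2 fold change was 1.48 ± 0.29 (edgeR adjusted p = 0.00848), and 5 of 6 knock-in libraries lay above the wild type range. Wild type libraries held 10 to 29 counts and knock-in ones 29 to 65. Wild type replicate 1 fell just short of the filter on low counts, so Wnt2b passed it only through the knock-in group.

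The main ligand, Wnt5a, was not called: its levels were 67.0 ± 19.7 CPM (SD, n = 6) in wild type and 101 ± 26.5 in knock-in, a log2 fold change of 0.61 ± 0.20 (edgeR adjusted p = 0.0882). The call depended on the setting: DESeq2 called Wnt5a higher (0.61, adjusted p = 0.0216), and so did edgeR with the replicate number as a block (0.61, adjusted p = 0.000886). Wnt10b, at 18.96 ± 1.49 and 21.6 ± 2.60 CPM, gave 0.19 ± 0.09 (adjusted p = 0.246). For Wnt9a, Wnt11, Wnt4 and Wnt7b the log2 fold changes ran from -0.82 ± 0.40 for Wnt7b to 0.67 ± 0.27 for Wnt9a, none called.

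Dkk2, which blocks or weakly activates the co-receptors depending on context, rose from a low level. Its wild type mesenchymal libraries were at 0.291, 0.450 and 2.26 CPM (lowest, median and highest) and its knock-in libraries at 1.86, 2.27 and 3.90. The log2 fold change was 1.85 ± 0.42 (edgeR adjusted p = 0.0172). Wild type libraries held 4 to 29 counts and knock-in ones 24 to 49, so Dkk2 passed the filter on low counts only through the knock-in group. The ranges overlapped through wild type replicate 2 alone, which stood at 2.26 CPM against 0.291 to 0.697 in the other 5. Without that library the log2 fold change was 2.50 (edgeR adjusted p = 0.00142). The call held in all 12 fits without 1 library, with a log2 fold change down to 1.65 and an adjusted p of up to 0.0469. Dkk2 was not called in set 1 alone (edgeR adjusted p = 0.276) or in set 2 alone (0.0859). Dkk3 moved little from a high level, from 423, 457 and 534 CPM to 476, 594 and 611. Its log2 fold change of 0.29 ± 0.08 passed the threshold narrowly (edgeR adjusted p = 0.0470) and was lost in 10 of 12 fits without 1 library, at up to 0.104.

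Axin2, a feedback inhibitor often read as a marker of beta-catenin signalling, was at 10.7 ± 4.23 CPM in wild type and 9.17 ± 1.14 in knock-in mesenchymal cells (log2 fold change -0.21 ± 0.22, edgeR adjusted p = 0.628). Lef1, a DNA-binding partner of beta-catenin, was at 3.90 ± 1.17 and 6.99 ± 2.95 CPM (0.81 ± 0.27, adjusted p = 0.0809). Neither was called, and the groups overlapped for both. Lef1 was called higher by DESeq2 (adjusted p = 0.0306), with the replicate number as a block (edgeR adjusted p = 0.0161) and without the filter on low counts (edgeR adjusted p = 0.0442).

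Osteoblast and adipocyte markers moved with genotype in the same libraries. The summed level of 9 osteoblast markers was 1138 to 3091 CPM in wild type mesenchymal libraries (median 2094) and 462 to 986 in knock-in (median 883; exact permutation test, 2-sided, p = 0.00216). The summed level of 8 adipocyte markers was 238 to 574 CPM (median 386) and 70.1 to 195 (median 135; exact permutation p = 0.00216). Of the osteoblast list, Bglap, Bglap2 and Mepe averaged under 1 CPM in both genotypes, and of the adipocyte list Plin1, Cfd and Lep did. In knock-in Dmp1 and Adipoq did too. The osteoclast sum had a median of 70.3 CPM in wild type and 117 in knock-in mesenchymal libraries (exact permutation p = 0.0974). Of its 8 markers, 2 averaged 1 CPM or more in wild type and 4 in knock-in. The part of these shifts in the Wnt genes was not tested.

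In hematopoietic cells, knock-in libraries had less Sfrp2, Sfrp1, Rspo2, Fzd7 and Lrp5 and more Wnt9a. That is 6 of 22 tested genes, 1 higher and 5 lower, or 27.3%, against a background of 15.9% of all 14030 genes tested (9.01% higher and 6.89% lower). The median log2 fold change over the 22 genes was 0.10, beside -0.00 over all genes. The groups did not overlap for 4 of the 22, where the background is 7.8%. Frzb, Wif1, Rspo3, Lef1, Wnt2b, Wnt4, Wnt11 and Wnt16 did not pass the filter in these cells.

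The 2 receptor genes that fell, Fzd7 and Lrp5, are among those whose wild type hematopoietic level, as a share of the mesenchymal one, lay above every stromal marker. In knock-in this held for Lrp5 but not for Fzd7, which stood at 39.1%, below Lum at 60.5% and Dcn at 48.1%. Fzd7 had its lowest, median and highest wild type libraries at 27.6, 35.3 and 39.0 CPM and its knock-in ones at 18.97, 22.6 and 28.9. The log2 fold change was -0.57 ± 0.10 (SE, n = 6 per genotype; edgeR adjusted p = 0.00194), and 5 of 6 knock-in libraries lay below the wild type range. Lrp5 ran from 88.9 through 107 to 138 CPM in wild type and from 68.4 through 80.6 to 88.6 in knock-in. Its ranges were separate by a narrow margin, with a log2 fold change of -0.42 ± 0.10 (edgeR adjusted p = 0.0147). Lrp6, from 328 through 409 to 461 CPM in wild type and from 302 through 341 to 371 in knock-in, was not called (-0.24 ± 0.08, adjusted p = 0.0757), though DESeq2 called it (adjusted p = 0.0324). Of the other Frizzled receptors at 5 CPM or more here, Fzd1 gave 0.47 ± 0.21 (edgeR adjusted p = 0.151) and Fzd5 -0.38 ± 0.17 (adjusted p = 0.168). Fzd5 was called with the replicate number as a block (-0.41, edgeR adjusted p = 0.0372).

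The 3 other falls were in genes whose hematopoietic level was 3.14% to 6.51% of the mesenchymal level. Sfrp2 stood at 6.79, 9.69 and 15.3 CPM in wild type (lowest, median and highest) and 0.772, 1.51 and 3.32 in knock-in, a log2 fold change of -2.57 ± 0.33 (edgeR adjusted p = 0.000255). Sfrp1 stood at 7.97, 10.3 and 15.8 CPM and at 1.00, 2.98 and 5.85, a log2 fold change of -1.66 ± 0.34 (edgeR adjusted p = 0.00582). Rspo2 stood at 35.8, 70.4 and 167 CPM and at 6.82, 21.4 and 26.6, a log2 fold change of -2.01 ± 0.38 (edgeR adjusted p = 0.00390). The ranges of all 3 were separate. All 3 also fell in the mesenchymal cells of the same cultures, and for them RNA made in the sorted hematopoietic cells and RNA carried over cannot be told apart.

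Wnt9a, a ligand active in joint and blood stem cell development, rose from 0, 0.503 and 1.14 CPM in wild type to 0.927, 1.73 and 3.06 in knock-in hematopoietic libraries. The log2 fold change was 1.70 ± 0.50 (edgeR adjusted p = 0.0365), and 5 of 6 knock-in libraries lay above the wild type range. The call was lost in 9 of 12 fits without 1 library, with an adjusted p of up to 0.0823. Wild type libraries held 0 to 16 counts and knock-in ones 12 to 35, so Wnt9a passed the filter on low counts only through the knock-in group. Frzb and Wif1, which did not pass the filter here, were at 1.25 ± 0.934 and 1.35 ± 1.20 CPM in wild type and 0.0905 ± 0.154 and 0.0819 ± 0.128 in knock-in, with 4 and 3 of the 6 knock-in libraries at 0. In a fit without the filter both were called lower, Frzb at -3.63 ± 0.92 and Wif1 at -3.68 ± 0.90 on the log2 scale (edgeR adjusted p = 0.0267 and 0.0206). Both also fell in mesenchymal cells, and for them RNA made in hematopoietic cells and RNA carried over cannot be told apart. Wnt5a (0.42 ± 0.37, edgeR adjusted p = 0.504), Dkk3 (0.12 ± 0.26, adjusted p = 0.802) and Wnt5b (0.55 ± 0.29, adjusted p = 0.232) were not called.

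Osteoclast and osteoblast markers also moved in these libraries. The summed osteoclast markers, 8 genes, rose from a median of 547 CPM in wild type (92.9 to 1753) to 4040 in knock-in (1885 to 5050; exact permutation test, 2-sided, p = 0.00216). The osteoblast list had a median of 360 CPM in wild type and 140 in knock-in (exact permutation p = 0.0130). For the adipocyte list the medians were 614 and 364 (exact permutation p = 0.0736), and the ranges overlapped. Adipoq, Plin1, Cfd and Lep averaged under 1 CPM here in both genotypes. The adipocyte sum thus rested on the other members of its list. Bglap, Bglap2 and Mepe of the osteoblast list also averaged under 1 CPM in both genotypes, and Dmp1 did in knock-in. The part of these marker shifts in the Wnt genes was not tested.

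**Figure D4:**
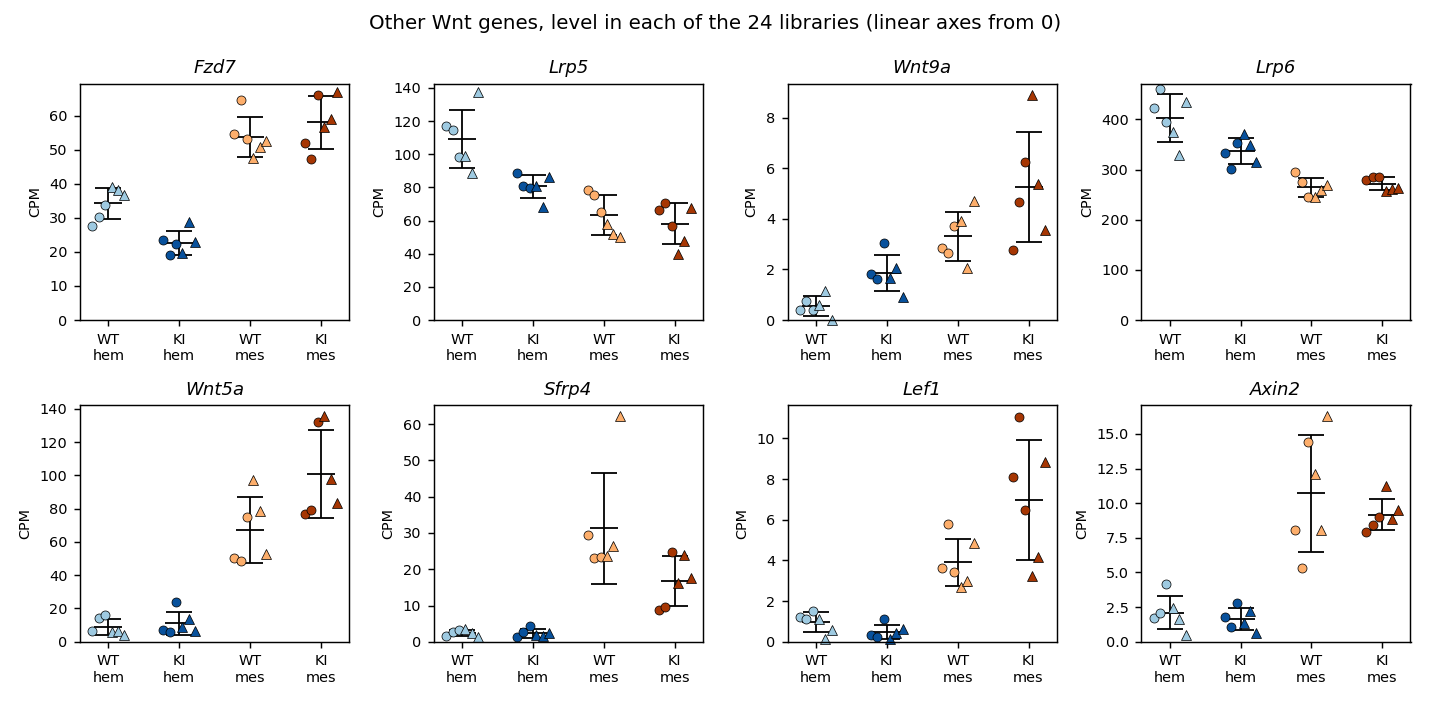
Level (CPM, linear axes from 0) in each of the 24 libraries of the genes called in hematopoietic but not in mesenchymal cells (Fzd7, Lrp5, Wnt9a) and of 5 genes called in neither genotype comparison (Lef1 was not tested in hematopoietic cells); circles are libraries of set 1, triangles of set 2, and bars show the mean and SD of 6 libraries. Lrp5 runs from 88.9 to 138 CPM in wild type hematopoietic libraries and from 68.4 to 88.6 in knock-in ones.

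The interaction asks whether the knock-in effect differed between populations, and it was called for Dkk2 and Fzd7. Both were higher, so that 2 of 30 tested genes, or 6.67%, were called. The background was 7.28% of 15389 genes (2.92% higher and 4.36% lower), so the share was near it. For Dkk2 the log2 fold change was 1.99 ± 0.53 greater in mesenchymal cells (SE; edgeR adjusted p = 0.0216), where it was 1.85 against -0.15 ± 0.30 in hematopoietic cells. Dkk2 hematopoietic libraries ran from 2.18 through 2.75 to 4.55 CPM in wild type and from 1.06 through 2.68 to 4.08 in knock-in. For Fzd7 the difference was 0.69 ± 0.15 (edgeR adjusted p = 0.00539), with 0.12 ± 0.10 in mesenchymal cells, where libraries ran from 47.5 through 52.7 to 64.7 CPM in wild type and from 47.3 through 57.9 to 67.0 in knock-in.

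Genes called in 1 population alone were not shown to differ between them unless the interaction was called. For Lrp5 it was 0.32 ± 0.17 (edgeR adjusted p = 0.321), for Fzd5 -0.34 ± 0.20 (0.375), for Wnt9a -1.05 ± 0.56 (0.325) and for Wnt5b 0.37 ± 0.33 (0.617). Lef1, called in neither population, had an interaction of 1.77 ± 0.56 (edgeR adjusted p = 0.0549), which DESeq2 called (adjusted p = 0.0128) and so did edgeR with the replicate number as a block (adjusted p = 0.0446). The shared falls of Sfrp2, Sfrp1 and Rspo2 gave interactions of 0.43 ± 0.39, -0.23 ± 0.45 and 1.04 ± 0.45, none called.

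**Figure D5:**
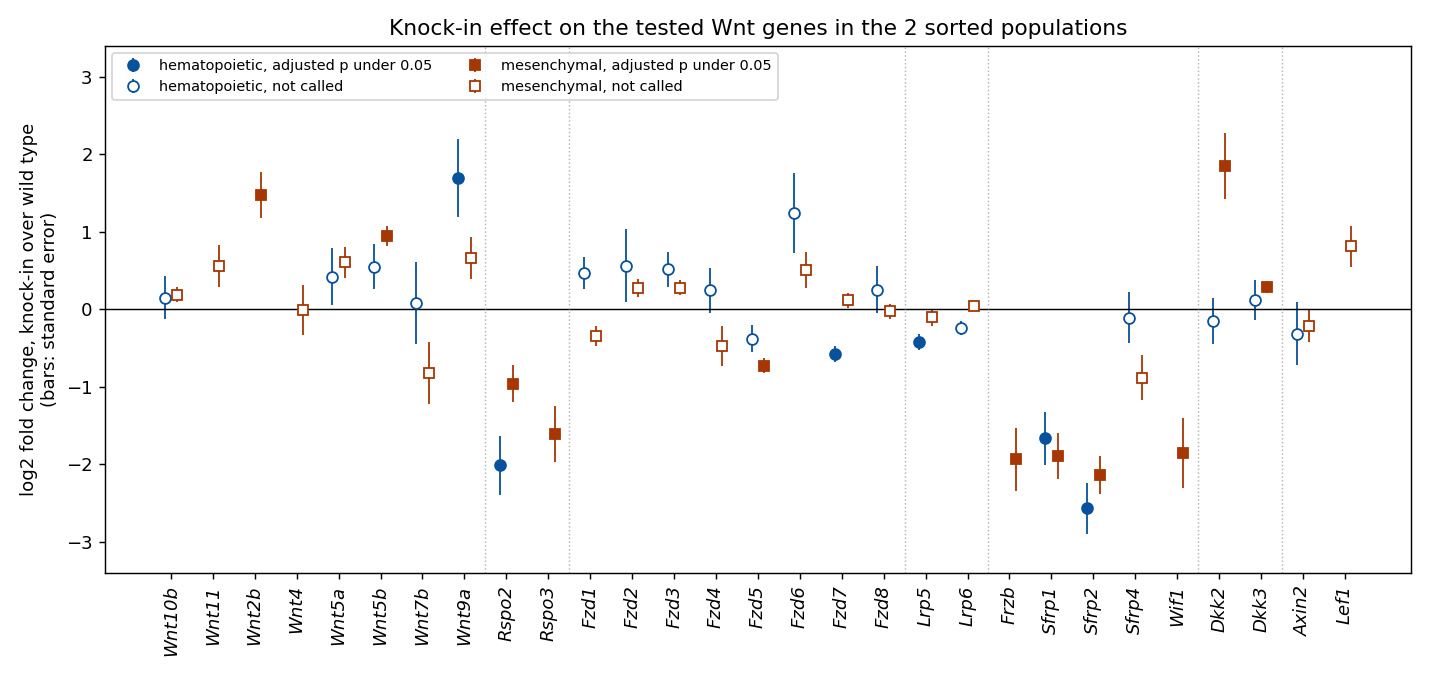
Log2 fold change of knock-in over wild type with its SE for the tested Wnt genes in mesenchymal and hematopoietic cells, ordered by role. Sfrp2 lies at -2.14 and -2.57, and Dkk2 at 1.85 in mesenchymal and -0.15 in hematopoietic cells.

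Beyond these 49 genes, other genes of the pathway were counted over 4 lists. The lists were chosen with earlier results of these data known, so a share above the background is no independent support. Their counts in mesenchymal cells stand beside the background of 7.27% of all genes called. There, 1 of 15 tested genes of Wnt secretion, co-receptors and receptor turnover rose and 1 fell, or 13.3%. Kremen1 rose (log2 fold change 0.38 ± 0.09, edgeR adjusted p = 0.0226). Lgr5, a receptor of R-spondins, fell from 32.3 ± 10.9 to 10.2 ± 6.67 CPM (log2 fold change -1.66 ± 0.38, edgeR adjusted p = 0.0223). Of 29 intracellular genes 1 rose and 2 fell, or 10.3%. Csnk1e rose (0.56 ± 0.09), and the co-repressors Tle2 (-0.97 ± 0.21) and Tle4 (-0.56 ± 0.14) fell. Of 7 planar polarity genes edgeR called 0, with 1 at an unadjusted p under 0.05. Of 15 known target genes 2 rose and 3 fell, or 33.3%: Cd44 (0.73 ± 0.13) and Ccn4 (0.50 ± 0.13) rose, and Nkd2 (-0.91 ± 0.12), Tnfrsf19 (-1.37 ± 0.36) and Ccnd1 (-0.73 ± 0.20) fell.

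In hematopoietic cells, where the background is 15.9%, 5 of 12 tested target genes were called, or 41.7%, 1 higher and 4 lower. Among them were Ccnd1, a cyclin (-1.20 ± 0.17, edgeR adjusted p = 0.000661), Cd44 (0.66 ± 0.12) and Tnfrsf19 (-1.57 ± 0.41). Of 27 intracellular genes 1 rose, Ctnnb1, which encodes beta-catenin, from 306 ± 21.5 to 449 ± 60.6 CPM (0.57 ± 0.09, adjusted p = 0.00137), and 2 fell, Apc (-0.24 ± 0.06) and Tle3 (-0.45 ± 0.13). That is 11.1%, under the background. Of 14 genes of Wnt secretion, co-receptors and receptor turnover, Kremen1 rose (0.36 ± 0.07). Wls, which carries Wnts out of the cell, fell (-0.38 ± 0.09). Together they are 14.3%, also under the background. Of 8 planar polarity genes 1 rose, Vangl1 (0.73 ± 0.16), or 12.5%.

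The interaction was called for 6 of 29 intracellular genes, or 20.7% against a background of 7.28%. For Ctnnb1 it was -0.62 ± 0.12 (edgeR adjusted p = 0.00166). For the other 5 the log2 fold change was greater in mesenchymal cells: Tle3 by 0.61 ± 0.16, Gsk3b, a kinase that marks beta-catenin for destruction, by 0.45 ± 0.12, Axin1 by 0.37 ± 0.09, Apc by 0.36 ± 0.09 and Tnks2 by 0.29 ± 0.09. In each of the other 3 lists 1 gene was called: Wls (0.44 ± 0.13) of 15, the planar polarity gene Vangl1 (-0.75 ± 0.19) of 8 and the target gene Tcf4 (0.70 ± 0.18) of 15.

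The windows of 250 bases before the RefSeq start sites (GRCm38.p6) are shown for 3 genes that moved in mesenchymal cells, to set the gene that fell most beside 2 that rose. Capitals mark TATAAA in Dkk2 and the beta-catenin partner core CTTTGAT in Wnt5b; Sfrp2 holds neither. The windows are chr3:83766071-83766320 on the plus strand for Sfrp2, chr3:132085042-132085291 on the plus strand for Dkk2, and chr6:119449387-119449636 on the minus strand for the third of 3 starts of Wnt5b. It is shown because it holds a match; the windows of the other 2 starts of Wnt5b hold neither TATAAA nor any core searched.
Sfrp2: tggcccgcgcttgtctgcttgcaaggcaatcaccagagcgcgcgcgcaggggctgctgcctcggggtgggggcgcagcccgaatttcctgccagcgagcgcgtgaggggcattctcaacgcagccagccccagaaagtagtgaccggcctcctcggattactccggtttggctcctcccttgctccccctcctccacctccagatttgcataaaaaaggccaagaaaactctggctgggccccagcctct
Dkk2: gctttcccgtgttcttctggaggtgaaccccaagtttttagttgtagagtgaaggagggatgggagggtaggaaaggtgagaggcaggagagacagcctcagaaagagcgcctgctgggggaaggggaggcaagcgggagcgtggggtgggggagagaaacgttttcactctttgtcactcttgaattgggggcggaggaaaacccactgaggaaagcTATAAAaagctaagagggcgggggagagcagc
Wnt5b: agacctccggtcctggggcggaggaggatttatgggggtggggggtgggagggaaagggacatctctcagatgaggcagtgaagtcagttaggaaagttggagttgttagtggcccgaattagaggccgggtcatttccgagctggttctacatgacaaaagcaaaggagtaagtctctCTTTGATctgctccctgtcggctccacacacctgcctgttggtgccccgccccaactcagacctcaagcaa

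The cores searched on both strands were CTTTGAT for one, CTTTGAA for another and CTTTGTT for the last. Each match was counted by its own letters, and a window with several counted once. They were found in 4 of 38 windows of 32 Wnt genes, 10.53%, against 12.04% of 32851 windows of all genes. TATAAA was found in 6 of 38, 15.79%, against 12.37%. Of the 11 genes called in mesenchymal cells, 7 had a window. A match describes letters in this window and nothing more.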

How the data were processed

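Deposited values are raw counts, whole numbers for every gene of every library, with no scaling by the authors. Stranded kits and paired-end reads were used, per the labels' protocols. The submitters' processing notes name GRCm38 (mm10) and the tools FastQC 0.11.7, MultiQC, DESeq2 1.20.0 and, for counting, HTSeq 0.9.1. Neither annotation nor strand setting is given in the sources used here, which leaves overlapping genes uncertain. Symbols came from GENCODE M21, which matched 54165 identifiers.

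In R 4.3.3, edgeR 4.0.16 was used throughout: filterByExpr with a minimum count of 10 and a minimum total of 15, TMM scaling, and a robust quasi-likelihood fit. P-values were adjusted over all genes by Benjamini-Hochberg, with a threshold of 0.05. Genotype fits used the 12 libraries of a population and the other fits all 24. A prefix in the file names splits each group into 2 sets of 3 libraries. What it marks is not stated by any label, and it was a term in the fits. Replicates differed by more than counting noise, with a chi-square per degree of freedom of 6.73 to 58.8. Fits were also run on simulated counts, which held no set effect and no shared culture, so that run does not test for these features.

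The genes and lists were chosen with earlier results of these data known. Log2 fold change, SE and adjusted p were named for called genes and those at 5 CPM or more, and library ranges for called genes and the 5 highest per length. Among the other marker lists, the endothelial, smooth muscle, B cell, neutrophil and leukocyte sums had exact permutation p-values of 0.0736 or more. The T cell list had 0.00649 in hematopoietic and 0.0952 in mesenchymal cells, with Cd4 its one member at 1 CPM or more in hematopoietic cells. The alternatives were another scaling, DESeq2 1.42.0, no filter, no set term, each set alone, a replicate block, 1 fit of all libraries, a marker covariate and each library left out.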

Additional observations from a re-analysis of the deposited data

Results flagged for a closer look

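A single library lay apart from the other 5 of its group, by Dixon's gap test, in 7 of 120 groups examined over 30 genes. A test at this level marks about 1 in 20 groups by chance. Dkk2 reached 2.26 CPM in wild type mesenchymal replicate 2, Rspo3 60.5 in wild type mesenchymal replicate 1 and Sfrp4 62.1 in wild type mesenchymal replicate 6. Wif1 reached 2.76 CPM in knock-in mesenchymal replicate 3 and 0.331 in knock-in hematopoietic replicate 4. Wnt16 reached 1.81 CPM in knock-in mesenchymal replicate 4, and Fzd3 5.33 in knock-in hematopoietic replicate 3.

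The knock-in effect differed between the populations by the interaction test for 2 genes. The log2 fold change was greater in mesenchymal cells by 1.99 for Dkk2 (edgeR adjusted p = 0.0216) and by 0.69 for Fzd7 (edgeR adjusted p = 0.00539).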

How the results depend on the processing

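Within the sets, with 3 libraries per group, fewer genes were called in the genotype comparisons: in hematopoietic cells 2 in set 1 and 1 in set 2 (6 with both), in mesenchymal cells 4 and 4 (11). For the interaction edgeR called 0 in set 1, with 5 at an unadjusted p under 0.05, and 2 in set 2, as with both sets, but there they were Fzd7 and Fzd1 (-1.25, adjusted p = 0.0270) in place of Fzd7 and Dkk2. DESeq2 and the replicate block each called 4 for the interaction, adding Lef1 to the 2, with Lrp6 (0.31, adjusted p = 0.0360) under DESeq2 and Fzd1 (-0.79, adjusted p = 0.0340) under the block. Sfrp2 was called in each set in both populations. Leaving out 1 library gave 5 to 7 hematopoietic, 7 to 12 mesenchymal and 2 to 4 interaction calls.

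No label says that the replicate numbers pair the samples. Deviations of same-numbered wild type and knock-in libraries from their group means correlated over 0.1 in 5 of 6 pairs in hematopoietic (median 0.416) and 5 of 6 in mesenchymal cells (median 0.343), and between populations in 4 of 6 in each genotype. With set means removed it was 6 of 6 in hematopoietic (0.19 to 0.55) and 5 of 6 in mesenchymal cells (0.034 to 0.448), and 4 and 3 of the 6 wild type libraries correlated best with their own number. Between populations it was then 2 of 6 in wild type (median -0.0896) and 5 of 6 in knock-in (median 0.159). Since not every pair passed in all comparisons, the fits reported carry no block, and a shared source of same-numbered libraries cannot be told from these values. The population and interaction fits thus treat libraries as independent, although both populations of a culture shared a dish. With the replicate block, Lef1 (log2 fold change 0.79, edgeR adjusted p = 0.0161) and Wnt5a (0.61, adjusted p = 0.000886) were called in mesenchymal cells and Fzd5 in hematopoietic cells (-0.41, adjusted p = 0.0372), while Dkk3 was not (0.29, adjusted p = 0.0584). Rspo2 in mesenchymal cells was lost without the filter (adjusted p = 0.108), without the set term (0.125) and in 1 fit of all libraries (0.0665), Rspo3 without the filter (0.0704). Dkk3 there was also lost without the set term (edgeR adjusted p = 0.0618), with the marker covariate (0.0668) and in 1 fit of all libraries (0.493).

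Values that changed sign were all uncalled, and the cause was not tested. Each is a log2 fold change, with the range without 1 library given after it where it crossed 0. In genotype fits these were Dkk3 in hematopoietic cells (-0.017 to 0.27), Fzd7 in mesenchymal cells in set 1 (-0.069) and Fzd8 there with the marker covariate (0.0020; -0.076 to 0.032). In the interaction they were Axin2 in set 2 (-0.15; -0.17 to 0.34), Fzd2 in set 1 (0.11; -0.56 to 0.085), Fzd3 in set 1 (0.0073), Rspo3 in set 1 (-0.75; -0.47 to 0.61), Sfrp1 (-0.45 to 0.049), Wnt10b in set 2 (-0.51; -0.13 to 0.21) and Wnt5a in set 2 (-0.38). Without the filter, 41 genes were tested in hematopoietic cells and 8 called, the 2 more being Frzb and Wif1, which 1 fit of all libraries also called (-3.74 and -3.72, adjusted p = 0.00270 and 0.00263). Differences in genes with a few counts in total, such as Sost and Dkk1, were not detectable at these depths.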
